A study of Mus musculus with 4 samples.

Results

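Runx2 binding was examined around 9 genes of the hypoxia and vascular endothelial growth factor (VEGF) pathway, *Vegfa*, *Vegfb*, *Vegfc*, *Hif1a*, *Epas1*, *Arnt*, *Vhl*, *Egln1* and *Egln3*, which are 9 of 22372 protein-coding genes of the annotation. A peak was assigned to a gene when it overlapped, by at least 1 bp, the window formed by the gene body and 50 kb on each side. Of 25457 Runx2 peaks in the day 0 list, 31 fell in the windows. The day 9 list had 73 of 60596 there, and the day 28 list 41 of 40330. No peak lay in more than 1 of the 9 windows.

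The peaks came from Runx2 ChIP-Seq of MC3T3-E1 (subclone 4) cells, a clonal preosteoblast line from calvaria of C57BL/6 mice at passages 28 to 31. Day 0 cells were proliferating, day 9 cells were depositing matrix and day 28 cells were mineralizing, and osteogenic differentiation was induced by ascorbic acid and beta-glycerophosphate. All 3 Runx2 samples were precipitated with the antibody M70, and the input DNA, from day 9 cells with no antibody, was not analysed here. Biological replicates of each day were pooled before peaks were called, so each day had 1 list, no difference between days carries a replicate error, and no test was made between days. The lists hold no read counts and no expression values, so that the cell type could not be checked by markers.

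The score of a peak is 10 times the negative log10 of its MACS p-value, and the lowest score was 100 (a p-value of 1e-10) in each list. Scores depend on sequencing depth, so each peak was ranked by its percentile, the share of its own list with a lower score. Peaks tied at a score of 3100, 192 in the day 0 list, 2699 in that of day 9 and 1468 in that of day 28, cannot be ordered among themselves. The highest score of each list was 3233, and 3100 is therefore read here as a mark of peaks near the top of the scale whose p-values were not resolved, not as a measured level. The lists covered 26.7 Mb, 40.1 Mb and 35.5 Mb of the genome. Shares are given with 95% intervals from the exact binomial (Clopper-Pearson) method, which reflect counting error alone.

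Cells sense oxygen through the hypoxia-inducible factors (HIF), which are heterodimers of an oxygen-labile alpha subunit, such as the products of *Hif1a* and *Epas1*, and a stable beta subunit encoded by *Arnt*. In the presence of oxygen, prolyl hydroxylases encoded by *Egln1* and *Egln3* modify the alpha subunit, which the product of *Vhl* then marks for degradation. When oxygen is low, the alpha subunit is retained and activates target genes, among them *Vegfa*, the main signal for growth of blood vessels, and in bone this pathway couples osteoblasts to blood vessel growth.

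The sequences below are the central 100 bp of day 9 peaks that stand out in the sections that follow, on the plus strand of mm9 and 5′ to 3′. Capitals mark TGTGGT, the core of the Runx motif, or its other strand ACCACA, and ACGTG or GCGTG, the core of the hypoxia response element to which HIF binds, or their other strands CACGT and CACGC. The letters of these motifs can overlap, since ACGTG and GCGTG end in the TG with which TGTGGT begins. The first group holds peaks with TGTGGT near the centre, at a distal region upstream of *Vegfa*, in exon 3 of *Vegfb*, in intron 1 of *Epas1*, in an intron of *Fancd2* within the *Vhl* window and upstream of *Vegfc*. The *Fancd2* sequence was chosen after its values were seen.
*Vegfa* distal, chr17:46210924-46211023: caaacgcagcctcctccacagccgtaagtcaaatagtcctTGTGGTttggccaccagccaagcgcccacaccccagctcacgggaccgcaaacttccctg
*Vegfb* exon 3, chr19:7060839-7060938: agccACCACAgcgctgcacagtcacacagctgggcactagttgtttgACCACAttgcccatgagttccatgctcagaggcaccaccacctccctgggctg
*Epas1* intron 1, chr17:87165403-87165502: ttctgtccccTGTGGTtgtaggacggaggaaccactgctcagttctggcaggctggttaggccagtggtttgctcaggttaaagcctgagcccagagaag
*Fancd2* intron 42, chr6:113542825-113542924: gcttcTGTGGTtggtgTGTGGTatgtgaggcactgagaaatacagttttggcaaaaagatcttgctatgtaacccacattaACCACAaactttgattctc
*Vegfc* upstream, chr8:55118956-55119055: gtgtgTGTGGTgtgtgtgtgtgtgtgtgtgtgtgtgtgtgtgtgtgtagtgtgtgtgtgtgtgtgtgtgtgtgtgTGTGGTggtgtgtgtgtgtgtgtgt
The *Vegfc* sequence is a run of TG repeats, a kind of sequence in which TGTGGT arises easily and short reads can match many places.

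The second group holds peaks without TGTGGT in the central 100 bp, at the promoter of *Hif1a* and in the first introns of *Egln1* and *Egln3*. ACGTG was present in the *Hif1a* promoter and in 1 of the 2 *Egln3* peaks. The *Egln1* sequence and the *Egln3* sequence with ACGTG were chosen after their values were seen.
*Hif1a* promoter, chr12:75008753-75008852: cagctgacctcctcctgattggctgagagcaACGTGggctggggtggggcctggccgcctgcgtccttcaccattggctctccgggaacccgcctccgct
*Egln1* intron 1, chr8:127450193-127450292: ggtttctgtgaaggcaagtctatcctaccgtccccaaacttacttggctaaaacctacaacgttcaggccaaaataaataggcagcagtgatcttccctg
*Egln3* intron 1, chr12:55288840-55288939: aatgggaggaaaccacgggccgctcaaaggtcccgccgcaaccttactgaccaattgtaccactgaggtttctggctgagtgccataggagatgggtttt
*Egln3* intron 1, chr12:55293062-55293161: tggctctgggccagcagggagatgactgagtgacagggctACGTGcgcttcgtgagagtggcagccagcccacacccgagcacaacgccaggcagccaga

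All 9 genes had Runx2 peaks in their windows at days 9 and 28, and 7 of 9 had them already at day 0. *Vegfc* and *Epas1* were the genes without a day 0 peak. Over all protein-coding genes, 73.8% had at least 1 peak in the window at day 0, 83.2% at day 9 and 78.3% at day 28. The gene-dense windows of *Vegfb* and *Vhl* held the most peaks, and *Vegfc* and *Egln3* the fewest at day 9.

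Peak numbers were highest at day 9 at most genes. In order of day, *Vegfa* had 5, 11 and 3 peaks, *Vegfb* 9, 20 and 12, and *Vegfc* 0, 2 and 2. *Hif1a* had 2, 4 and 3 peaks, *Epas1* 0, 6 and 1, and *Arnt* 3, 7 and 4. *Vhl* had 6, 13 and 10 peaks, *Egln1* 4, 8 and 4, and *Egln3* 2 at every day. Day 9 exceeded day 0 at 8 of 9 genes, the exception being *Egln3*, and the same held for 71.9% of all genes. Day 28 was below day 9 at 7 of 9 genes, all but *Vegfc* and *Egln3*, against 62.8% of all genes.

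**Figure D1:**
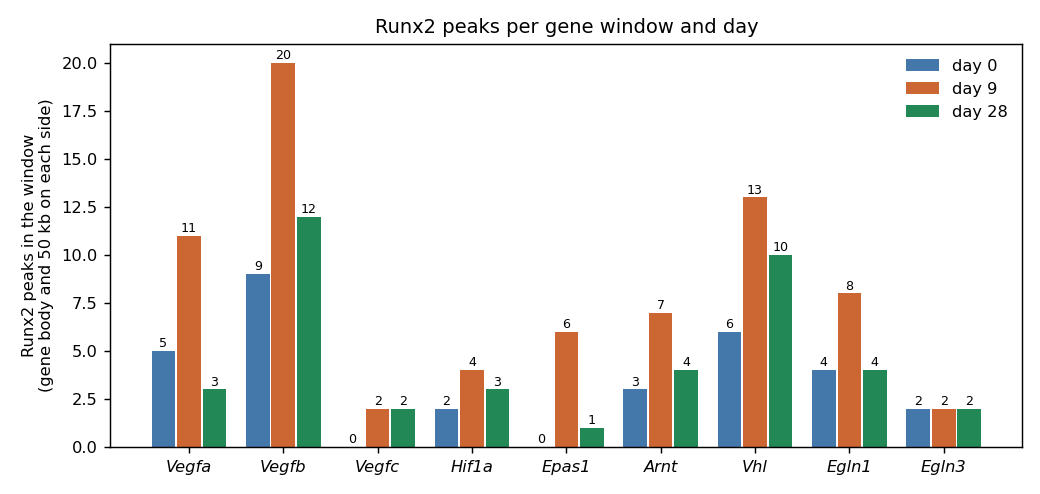
Number of Runx2 peaks (y axis) in the window of each gene (x axis) at day 0, day 9 and day 28 (bars, 1 pooled peak list per day and no error bar). *Vegfb* and *Vhl* have the tallest bars, with 20 and 13 peaks at day 9, and *Vegfc* and *Epas1* have no peak at day 0.

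The sum over the 9 windows followed the size of the lists. From day 0 to day 9 the number of peaks in the windows differed by a factor of 2.35, against 2.38 over all peaks, and from day 9 to day 28 by a factor of 0.562, against 0.666. The median gene of the 9 had 3, 7 and 3 peaks at days 0, 9 and 28, and the median of all genes was 2, 5 and 3. The day 9 and day 28 lists were also cut to the 25457 peaks of highest score, as many as day 0 has, and the 9 windows then held 31, 31 and 32 peaks in order of day. With lists of equal length *Vegfa* had 5, 4 and 3 peaks, *Vhl* 6, 8 and 7, *Egln1* 4 at every day, and *Epas1* 0, 1 and 1.

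Most peaks were nearer to the start of another gene. The nearest protein-coding start was that of a member for 12 of 31 peaks at day 0, 30 of 73 at day 9 and 15 of 41 at day 28. Peaks overlapped the body of a member in 10, 19 and 13 cases. *Vegfb* had the most day 9 peaks, a number reached by 4.97% of all genes, but only 1, 2 and 1 of its peaks at days 0, 9 and 28 were nearest to its own start. Exactly the same 3 peak numbers, 9, 20 and 12, were found for 5 other genes, of which *Slc4a2*, *Rpl30-ps6* and *Gdpd5* had windows that do not overlap that of *Vegfb*.

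**Figure D2:**
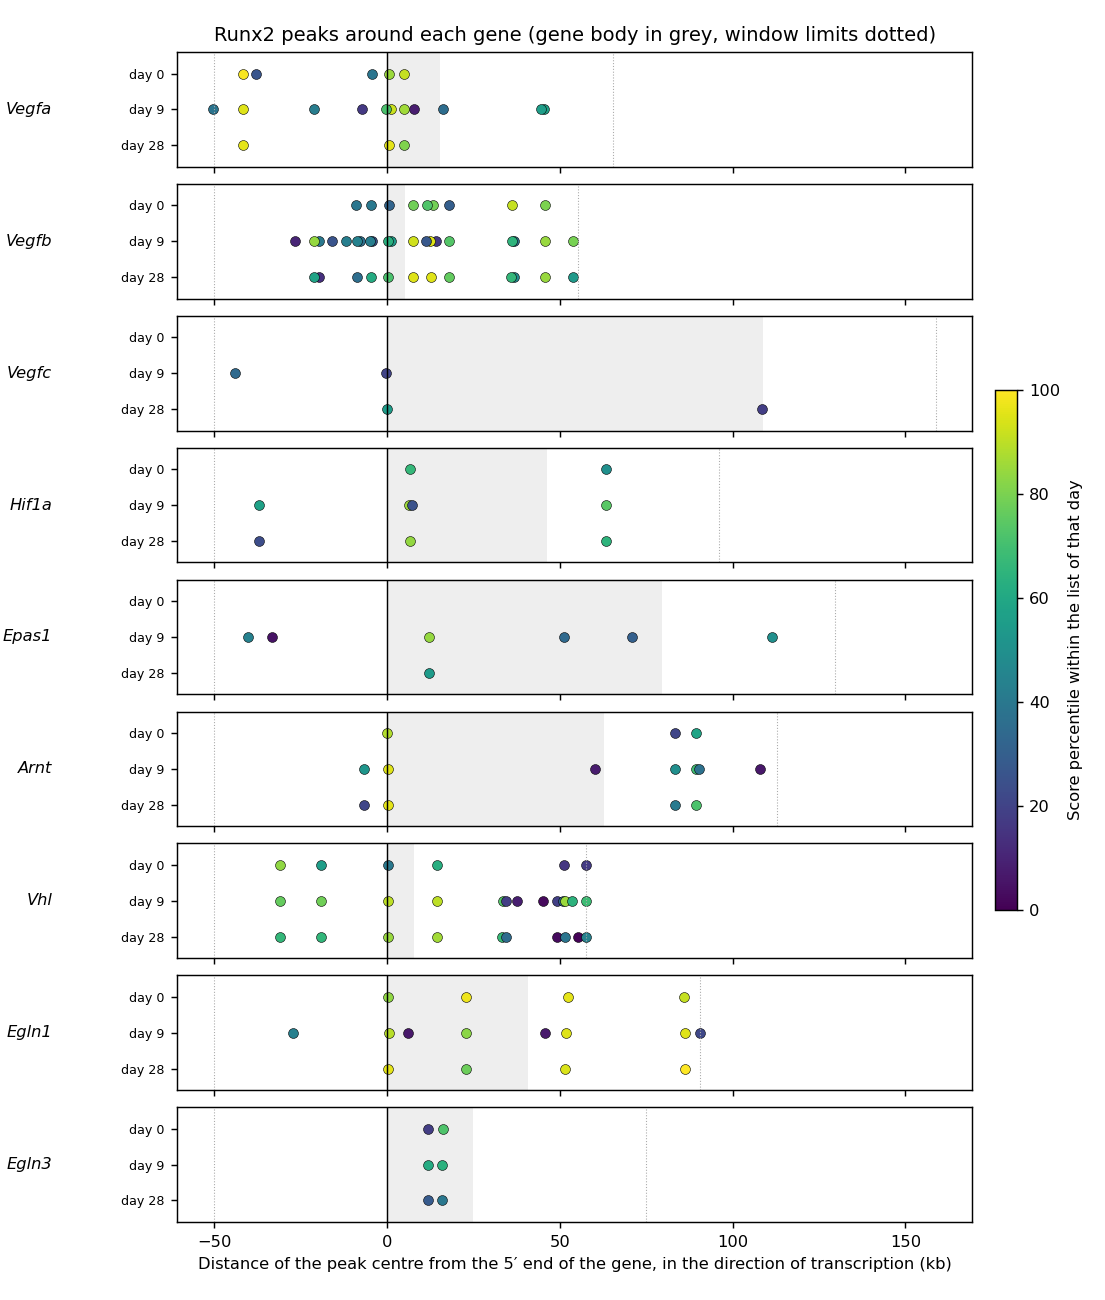
Position of each Runx2 peak centre relative to the 5′ end of the gene (x axis, kb in the direction of transcription) at the 3 days (rows of each panel), coloured by score percentile within the list of that day, with the gene body in grey and the window limits dotted. Columns of bright points at or near 0 in the panels of *Vegfa*, *Arnt* and *Egln1* are start regions bound at all 3 days, and the panel of *Epas1* has no point at day 0.

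*Vegfa* encodes the principal VEGF ligand and lies on the minus strand at chr17:46153942-46169326. Its start was bound at every day, and 2 further regions of high percentile were bound at every day, 1 inside the gene and 1 far upstream. Of its 12 regions, 3 were bound at all 3 days, 7 at day 9 only and 2 at day 0 only.

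The start region of *Vegfa* had a score of 747 at day 0 (percentile 84.9), 2202 at day 9 (92.0) and 3100 at day 28 (95.96). At day 9 it was split into 2 peaks, the second with a score of 606. The region in intron 2 had a score of 1033 at day 0 (percentile 91.3), 1399 at day 9 (85.9) and 1121 at day 28 (80.5), with the day 9 centre 3.76 kb downstream of the nearest *Vegfa* start. Thus the start region stood at its highest percentile at day 28 and the intron at day 0.

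The distal region lay 41.6 kb upstream of *Vegfa* and held the highest-scoring peak of the window at days 0 and 9, and tied with the start at day 28. It reached the shared score of 3100 at all 3 days, a level met by few peaks of the day 0 list, where its percentile was 99.2. The core TGTGGT shown above lay 7 bp from the centre of its day 9 peak. The nearest protein-coding start was that of *Mrps18a*, a mitochondrial ribosomal protein gene, 36961 bp away, so the region is closer to this neighbour than to *Vegfa*. The regions bound at day 9 only were weaker, with percentiles between 8.02 and 57.2. The 2 regions bound at day 0 only, 4442 bp and 38021 bp upstream of *Vegfa*, were the only regions of this kind in the 9 windows and stood at percentiles 38.8 and 26.5.

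*Vegfb*, which encodes a ligand of the receptor Flt1, lies on the minus strand at chr19:7056963-7062141 among 11 other protein-coding genes of its window. Its own start was bound at every day, with a score of 184 at day 0 (percentile 32.1), 429 at day 9 (63.6) and 743 at day 28 (71.5). This was the lowest start percentile among the 6 members bound there at all 3 days, at each of the days. A separate peak in coding exon 3, seen at day 9 only with a score of 303, had 2 copies of the Runx core in its central 100 bp, 1 of them at the centre.

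Most peaks of the *Vegfb* window lay at starts of other genes. The highest day 9 score, 3049, was at the start of *Ppp1r14b*, which encodes an inhibitor of protein phosphatase 1, and further regions bound at all 3 days were nearest to starts of *Bad*, *Plcb3*, *Fkbp2*, *Dnajc4* and *Trpt1*. The strongest region away from starts was in intron 6 of *Fermt3*, an integrin-binding protein gene. It held no peak at day 0 and had a score of 1246 at day 9 (percentile 84.2) and 441 at day 28 (58.2).

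*Vegfc*, the ligand for growth of lymphatic vessels, lies on the plus strand at chr8:55162886-55271808 and had the sparsest window at day 9, with 0.957 peaks per 100 kb. Its start had no peak at day 0, a score of 134 at day 9 (percentile 20.1) and 389 at day 28 (54.8). The start peak was weak at day 9 and near the middle of its list at day 28. The other peaks were the one in the TG repeat 43.9 kb upstream at day 9, with a score of 176, and one in the 3′ UTR at day 28, with a score of 142.

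*Hif1a*, an oxygen-labile alpha subunit of HIF, lies on the plus strand at chr12:75002362-75048517. Its peaks were at a start within intron 1 of the longest transcript, 6.44 kb from the 5′ end of the gene, and no peak lay at the 5′ end itself. The score there was 415 at day 0 (percentile 66.6), 1356 at day 9 (85.5) and 1326 at day 28 (83.9). At day 9 a second peak with a score of 146 lay beside it. A region 37.1 kb upstream appeared at day 9 with a score of 338 (percentile 57.4) and remained at day 28 with 160 (23.2). The remaining region, bound at all days, was at the start of *Snapc1*, a subunit gene of the complex that activates small nuclear RNA genes.

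*Epas1*, which encodes the other alpha subunit examined, HIF-2 alpha, lies on the plus strand at chr17:87153247-87232750. It differed from *Hif1a* in that no peak lay within 1 kb of a start at any day, and its window had no peak at day 0. The leading region was in intron 1, 12.2 kb downstream of the start, with a score of 1258 at day 9 (percentile 84.3) and 386 at day 28 (54.5). TGTGGT lay 37 bp from the centre of the day 9 peak, and the peak held 3 copies in all. The other 5 regions were bound at day 9 only, with percentiles between 4.70 and 49.8, and included peaks in introns 2 and 9.

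*Arnt*, the beta subunit gene, lies on the plus strand at chr3:95238310-95301162. Its start had a score of 878 at day 0 (percentile 88.4) and the shared score of 3100 at days 9 (95.2) and 28 (95.96), and was the start of highest percentile among the members at days 0 and 9. At day 28 it was tied with the starts of *Vegfa* and *Egln1*. A region 6.54 kb upstream had a score of 282 at day 9 and 151 at day 28. The downstream side of the window holds *Ctsk* and *Ctss*, genes of the proteases cathepsin K and S, and the 2 regions bound at all days there were nearest to the start of *Ctss*. Their percentiles were 20.7, 49.5 and 40.7 for the first and 58.3, 69.4 and 71.7 for the second.

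*Egln1*, the gene of the prolyl hydroxylase PHD2, lies on the minus strand at chr8:127432496-127473154 and was bound at its start and within intron 1 at all days. The start had a score of 700 at day 0 (percentile 83.3), 1759 at day 9 (89.2) and 3100 at day 28 (95.96). The region in intron 1, 22.9 kb from the start, had a score of 2014 at day 0 (percentile 97.6), 1131 at day 9 (82.6) and 967 at day 28 (77.4). The order of the days was therefore opposite at the start and in the intron. At day 9 2 copies of TGTGGT lay in the intron 1 peak, 345 bp and 442 bp from its centre. The starts of the neighbours *Gnpat*, a gene of ether lipid synthesis, and *Exoc8*, an exocyst subunit gene, both had a score of 3100 at day 9.

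*Egln3*, which encodes the prolyl hydroxylase PHD3, lies on the minus strand at chr12:55279968-55304847 and had only 2 regions, both in intron 1 and both bound at every day. The first, 15.96 kb from the start, had a score of 484 at day 0 (percentile 72.1), 433 at day 9 (63.9) and 243 at day 28 (39.7). The second, 11.7 kb from the start, had a score of 138 at day 0 (percentile 17.8), 385 at day 9 (61.0) and 180 at day 28 (28.5). No peak of *Egln3* lay near a start, in contrast to *Egln1*.

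*Vhl*, the recognition subunit of the ubiquitin ligase that acts on HIF, lies on the plus strand at chr6:113573953-113581627. Its start had a score of 218 at day 0 (percentile 40.2), 1856 at day 9 (89.9) and 1365 at day 28 (84.4). Only this peak was nearest to a *Vhl* start at any of the days. The largest day 9 score of the window, 1861, was at the start of *Irak2*, a kinase gene of interleukin-1 signalling, where day 0 had 372 and day 28 had 1496.

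Other regions of the *Vhl* window lay in introns of *Irak2* and of *Fancd2*, a DNA repair gene. The *Fancd2* region had a score of 700 at day 0 (percentile 83.3), 788 at day 9 (76.4) and 600 at day 28 (66.3), and was the only region of the 9 windows with TGTGGT at the centre of its day 0 peak. All 3 copies of the core in its day 9 peak lay within 42 bp of the centre. A region in intron 6 of *Irak2* stood at its highest percentile at day 9. It had a score of 133 at day 0 (percentile 15.8), 1322 at day 9 (85.1) and 237 at day 28 (38.8). At day 9 it was split into 2 peaks, the other with a score of 176.

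A peak within 1 kb of a protein-coding start was found at 6 of 9 genes at day 0 and at 7 of 9 at days 9 and 28. Among all genes the shares were 43.6%, 53.2% and 51.1%. The ligand gene *Vegfc* had no start peak at day 0, and *Epas1* and *Egln3* had none at any day. *Vegfa*, *Vegfb*, *Hif1a*, *Arnt*, *Vhl* and *Egln1* had a start peak at all 3 days, as did 42.4% of all genes. In these 6 genes the highest start peak stood at a higher percentile at days 9 and 28 than at day 0. This pattern was common, since it was found in 84.6% of the 9491 genes with a start peak at all days, in which the median percentiles were 62.6, 85.7 and 82.6 in order of day. A percentile also depends on how many weak peaks a list holds, so an order of days within 1 region is a description of ranks and not of the amount of Runx2.

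Away from starts the picture was mixed. Of the 10 member regions bound at all 3 days outside the 1 kb around any protein-coding start, 5 had their highest percentile at day 0. These were the intron 2 and distal regions of *Vegfa*, intron 1 of *Egln1*, the first *Egln3* region and the *Fancd2* region. Of 9685 such regions in the genome, 34.8% had their highest percentile at day 0. For the distal *Vegfa* region the order follows from the number of peaks that share the score of 3100.

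**Figure D3:**
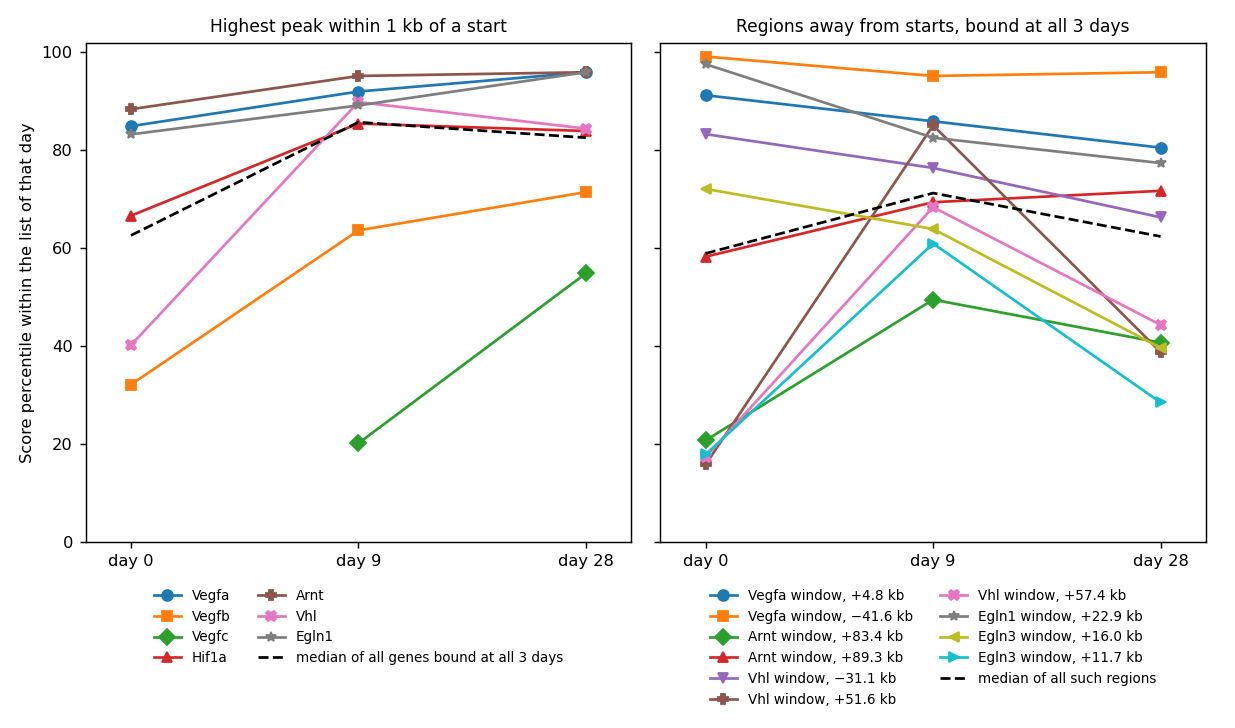
Score percentile within the list of each day (y axis) at the 3 days (x axis), for the highest peak within 1 kb of a start (left, 7 genes) and for regions away from starts bound at all 3 days (right, 10 regions named by gene window and by the distance of the day 9 peak from the 5′ end of the gene), with dashed lines for the median over the genome. The 6 start lines that begin at day 0 are all lowest at day 0, whereas on the right 5 of 10 lines are highest at day 0.

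Merged over the days, the peaks of the 9 windows formed 71 of 67703 regions. At days 0, 9 and 28 a peak was present in 30, 67 and 40 of the 71, so splitting of regions into several peaks added little to the counts. Of the 71, 28 were bound at all 3 days (39.4%, interval 28.0 to 51.7), against 27.4% of all regions and 29.0% of those within 50 kb of a protein-coding gene. A further 29 were bound at day 9 only (40.8%, interval 29.3 to 53.2, against 34.5% of all regions), and 10 at days 9 and 28 (14.1%, against 21.1%). The others were bound at day 28 only (2 regions, at *Vegfc* and in *Irak2*) or at day 0 only (2 regions, both at *Vegfa*).

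Regions at starts and away from starts were then counted apart. Starts here are those of any protein-coding gene, including neighbours of the 9 genes. At days 0, 9 and 28, 6, 10 and 7 peaks of the windows lay at starts of the 9 genes. At starts of other genes lay 13, 17 and 14. Of 23 member regions at starts, 18 were bound at all 3 days (78.3%, interval 56.3 to 92.5), against 67.1% of all such regions. Of 48 away from starts, 10 were bound at all 3 days (20.8%, interval 10.5 to 35.0, against 17.8%) and 26 at day 9 only (54.2%, interval 39.2 to 68.6, against 40.2%). The regions bound at day 9 only were weak, with a median percentile of 34.0 and a highest of 64.2, against a median of 83.5 at day 9 for regions bound at all days. With lists of equal length 1 region at day 9 only was left. It was a peak in intron 8 of *Irak2* with a score of 439. The cut removes all day 9 peaks with scores below 346, so this count restates that the others scored low.

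**Figure D4:**
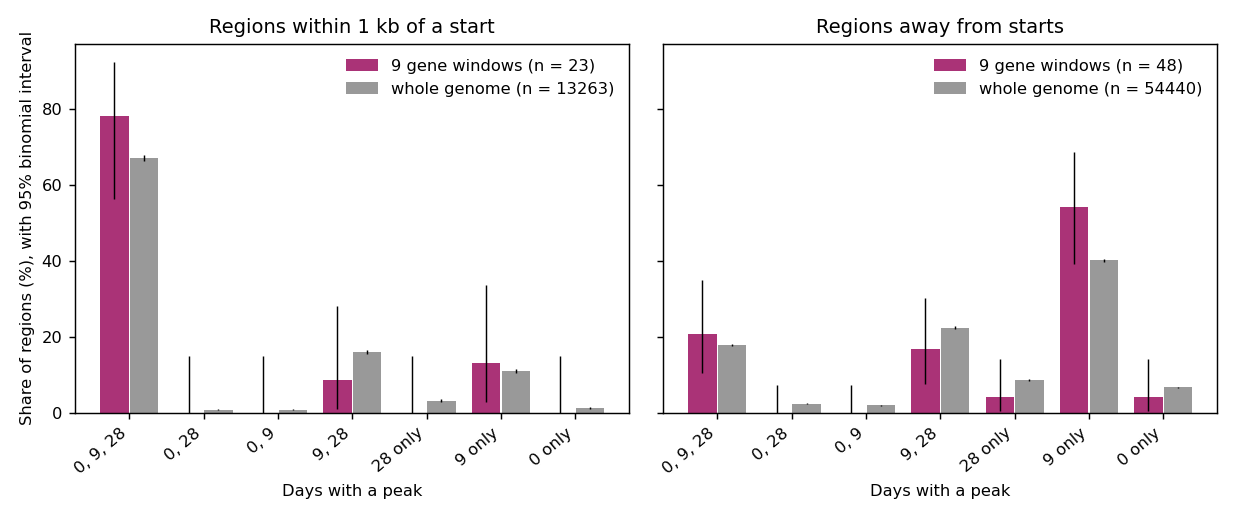
Share of regions (y axis, %) by the days at which they hold a peak (x axis), with exact 95% binomial intervals. The 9 gene windows and the whole genome are shown at starts (left) and away from starts (right). Starts are those of any protein-coding gene, including neighbours of the 9 genes. Binding at all 3 days is the tallest pair of bars at starts (78.3% and 67.1%), and binding at day 9 only is the tallest away from starts (54.2% and 40.2%).

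Few peaks at these genes had the Runx core near the centre, which is the midpoint of the peak and not its summit. Median widths of the member peaks were 1087, 567 and 939 bp at days 0, 9 and 28, so the searched 100 bp are only part of a peak. TGTGGT, on either strand, lay within 50 bp of the centre of 1 of 31 peaks at day 0 (3.23%, interval 0.0816 to 16.7), 15 of 73 at day 9 (20.5%, interval 12.0 to 31.6) and 5 of 41 at day 28 (12.2%, interval 4.08 to 26.2). Over all peaks the shares were 15.9%, 25.2% and 20.7%, and at each day the member share was the lower of the pair, with the share of all peaks inside the interval. Within 100 bp of the centre the core was found in 12.9%, 30.1% and 22.0% of member peaks, against 26.9%, 37.3% and 33.0% of all peaks.

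Most peaks with the core were away from starts. There the member share was 1 of 12 at day 0 (8.33%, against 22.4% of all such peaks), 14 of 46 at day 9 (30.4%, against 30.3%) and 4 of 20 at day 28 (20.0%, against 26.7%). At starts of any protein-coding gene it was 0 of 19 at day 0 (interval up to 17.6%, against 5.10%). It was 1 of 27 at day 9 (3.70%, against 7.30%) and 1 of 21 at day 28 (4.76%, against 5.99%). The peaks at starts with the core were the *Vegfb* exon 3 peak at day 9 and the *Ppp1r14b* start peak at day 28. A flank 450 to 550 bp from the centre was also searched, on the side of lower coordinates only. There 1 of 31 day 0 peaks had the core (3.23%, against 6.48% over all peaks). So did 4 of 73 day 9 peaks (5.48%, against 7.36%) and 0 of 41 day 28 peaks (interval up to 8.60%, against 6.92%).

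**Figure D5:**
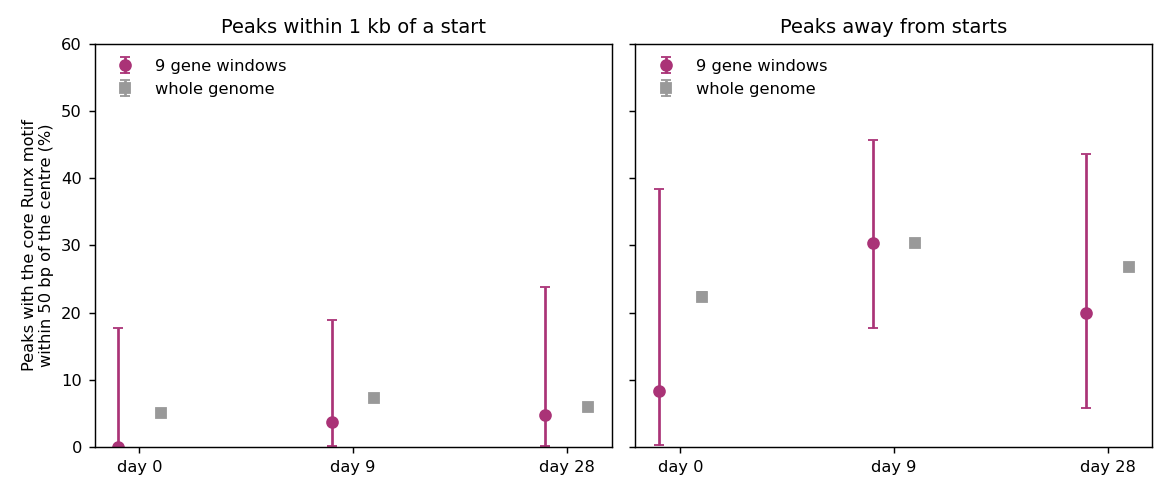
Share of peaks with TGTGGT within 50 bp of the centre (y axis, %) at each day (x axis), with exact 95% binomial intervals. The 9 gene windows and the whole genome are shown at starts of any protein-coding gene (left) and away from starts (right). Away from starts the gene windows and the genome have 8.33% and 22.4% at day 0, 30.4% and 30.3% at day 9 and 20.0% and 26.7% at day 28, and at starts both stay below 10%.

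The core of the hypoxia response element was also searched, because several of the 9 genes are HIF targets. ACGTG or GCGTG lay within 50 bp of the centre of 9 of 31 member peaks at day 0 (29.0%, interval 14.2 to 48.0). At day 9 it was 21 of 73 (28.8%, interval 18.8 to 40.6). At day 28 it was 12 of 41 (29.3%, interval 16.1 to 45.5). The shares over all peaks were 19.7%, 19.4% and 18.4% in order of day, each inside the interval of the member share. Away from starts at day 9 it was 12 of 46 (26.1%, interval 14.3 to 41.1, against 16.4%, which lies inside the interval). At starts of any protein-coding gene the shares were close to those of all start peaks. They were 31.6% against 30.9% at day 0, 33.3% against 29.6% at day 9 and 33.3% against 29.4% at day 28. Such start peaks made up 19 of 31, 27 of 73 and 21 of 41 peaks in the windows. Over all peaks they made up 37.7%, 22.5% and 29.1%. In the flank on the side of lower coordinates the motif was found at 16.1% of member peaks at day 0 (against 13.4% of all peaks). It was found at 10.96% at day 9 (against 12.0%) and 19.5% at day 28 (against 12.7%). For peaks of the windows at starts at day 28 this flank held it as often as the centre, in 7 of 21 peaks. A match to these 5 letters is not evidence that HIF binds there.

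Runx2 peaks were also counted around 37 other genes of the pathway. At day 0, 36 of the 37 had a peak in the window, against 73.8% of all protein-coding genes. At day 9 it was all 37 (against 83.2%) and at day 28 again 36 (against 78.3%). The exception was *Kdr*, the main receptor of VEGF on endothelial cells, with 0, 1 and 0 peaks, which is named here after its values were seen. A start peak at all 3 days was found for 27 of 37, against 42.4% of all protein-coding genes. Day 9 exceeded day 0 at 28 of 37, against 71.9% of all genes, a share near this background. The 5 genes *Arnt2*, *Figf*, *Nrp1*, *Pfkfb3* and *Adm* had fewer peaks at day 9 than at day 0 and are likewise named after their values were seen.

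The counts of start peaks in the groups below stand against the same 42.4% of all genes, and the groups are small. Among the other HIF subunits and hydroxylases, 2 of 4 had a start peak at all days, and *Hif3a*, a further alpha subunit gene, had 2, 8 and 3 peaks and *Egln2*, the third prolyl hydroxylase gene, 3, 7 and 3. Of the genes of the ubiquitin ligase around Vhl, 3 of 4 had a start peak at all days, and the elongin genes *Tceb2* and *Tceb1* had 1, 11 and 4 and 5, 5 and 4 peaks. The coactivator genes *Ep300* (2, 5 and 4 peaks) and *Crebbp* (3, 8 and 6) and *Cited2* (2, 3 and 3), whose product competes with HIF for them, all had start peaks at all days.

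Of the VEGF receptors, 3 of 5 had a start peak at all 3 days. The neuropilin gene *Nrp2* had 5, 17 and 19 peaks, *Flt1* 5, 9 and 6, and *Nrp1* 11, 9 and 8. The ligand genes *Pgf* (5, 16 and 10 peaks) and *Figf* (2, 1 and 2) lacked a start peak at 1 or more days. Among 19 known HIF target genes, 16 had a start peak at all days (42.4% of all genes), and the highest day 9 numbers were those of *Ddit4*, an inhibitor of mTOR signalling, with 7, 21 and 14 peaks, and *Pfkfb4*, a regulator of glycolysis, with 8, 18 and 9. The list of 37 genes was chosen with earlier results of these data known, and no test of it was made.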

How the data were processed

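Runx2 ChIP-Seq peaks of MC3T3-E1 cells at days 0, 9 and 28 were used, with 1 deposited peak list per day. Per the methods of the study, the authors mapped reads to mm9, pooled replicates, called peaks with MACS against input DNA and kept those passing a p-value of 1e-10. The submitters' processing notes name CASAVA 1.6, Bowtie 0.12.8 and MACS 1.4.1. The deposited value is the authors' MACS score per peak (the negative log10 p-value multiplied by 10), which was used only within a list. Samples were grouped by the day in their labels. The depth of the libraries cannot be read from the lists, but the study reports the most raw reads for day 0 and the fewest for day 28.

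Gene bodies, starts, exons and introns of protein-coding genes were taken from GENCODE M1, annotated on the same assembly, and sequence from the mm9 reference. Coordinates are counted from 1. A start peak overlapped the 1 kb on either side of a start of a protein-coding transcript. Regions were peaks of the 3 lists joined by an overlap of 1 bp. Motifs were searched in the 100 bp around the peak centre, the midpoint between the ends of the peak. The score ties and the pooling mean that counts and ranks are descriptions.

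The 9 genes and the list of 37 pathway genes were chosen with earlier results of these data known. All 9 were named, with their start peaks and highest day 9 peak, and neighbours whose start was nearer to a described peak. For the gene with the most day 9 peaks, the 3 genes with the most similar peak numbers were named. Of pathway groups of 4 or more, the 2 genes with most day 9 peaks (with ties) were named, with any gene lacking peaks at all days, and all genes of smaller groups. Other regions were described after their values were seen. Alternatives covered the p-value threshold, equal list lengths, the window, the nearest start, the overlap, the start definition and the motif. The counting, merging and motif steps were tested on simulated data and run in Python 3.11.15 with SciPy 1.17.1, NumPy 2.4.6 and, for figures, Matplotlib 3.10.9.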

Additional observations from a re-analysis of the deposited data

How the results depend on the processing

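Over 14 quantities and 119 alternative values, 37 were counted as moved and 82 were not, but the 82 are not all close to the reported value. With TGTGGT sought within 100 bp of the centre, its share was 12.9%, 30.1% and 22.0% at days 0, 9 and 28. The reported shares were 3.23%, 20.5% and 12.2%. Regions bound at day 9 only numbered 37, against 29, when peaks were joined by centres within 250 bp. Member peaks at days 0, 9 and 28 numbered 31, 73 and 41 as deposited. With a p-value of 1e-50 or less they numbered 13, 26 and 22, within 10 kb of the gene 17, 33 and 20, within 100 kb 56, 127 and 76, and with the nearest start that of the member 12, 30 and 15. Day 9 had 45 at a p-value of 1e-20 and 31 with lists of equal length. Regions bound at all 3 days numbered 12 at 1e-50, 16 within 10 kb, 50 within 100 kb and 10 by nearest start. Regions bound at day 9 only numbered 13 at 1e-20, 5 at 1e-50, 1 with equal lengths, 11 within 10 kb, 51 within 100 kb and 14 by nearest start. These counts depend by construction on the threshold and the window. Genes with a start peak at day 0 numbered 3 at 1e-50.

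The share of peaks with TGTGGT at day 0 was 0% within 10 kb and 0% by nearest start, and at day 9 it was 11.5% at 1e-50. Anywhere in the peak the core was found in 41.9%, 56.2% and 48.8% of peaks at days 0, 9 and 28. Over all peaks the shares were 61.4%, 58.7% and 61.6%. The share of all peaks lay above the member interval at day 0 (24.5 to 60.9) and inside it at days 9 and 28. Counted apart at day 0, it was 31.6% against 43.1% at starts and 58.3% against 72.4% away from starts. Both shares of all peaks lay inside the member intervals there. The median percentile of member peaks was 66.6, 49.8 and 65.9 at days 0, 9 and 28, and became 88.4, 84.8 and 84.2 at 1e-50, 73.2 at 1e-20 and 84.2 with equal lengths at day 9, and 79.0 within 10 kb at day 28, ranks being kept from the full lists. No paired analysis was possible because each day has 1 pooled list. The lists limit these results to peaks past a p-value of 1e-10, so weaker binding at *Vegfc* or *Epas1* at day 0 was not detectable.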
